A study of Homo sapiens with 33 samples.

Results

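DNA replication licensing and fork genes were followed in RNA-seq libraries of 6 established cell lines exposed to palbociclib, an inhibitor of the cyclin-dependent kinases CDK4 and CDK6. The group holds 52 genes that were chosen by name and sorted by role: 9 of origin recognition and loading, 8 MCM proteins, 7 of origin firing and the CMG helicase, 10 DNA polymerase and primase subunits, 6 of the sliding clamp and its loader, 5 of single-strand binding and Okazaki fragment maturation, 2 of chromatin assembly and 5 of fork protection. All 52 were found among the 58302 genes of the deposited matrix, and all 52 reached 100 counts per 20000000 reads (CP20M, the unit of the deposited values) in at least 1 library. H2052, H2452, H28 and MSTO-211H are malignant pleural mesothelioma (MPM) lines classed as sensitive to palbociclib. Both resistant lines are insensitive to the drug. MPP89 is of MPM and carries mutated RB1, while MeT-5A comes from mesothelial cells immortalized by SV40, whose large T antigen inactivates pRb. Cells received 0.1% DMSO (14 libraries) or 1 µM palbociclib (14 libraries) for 9 or 10 days, and 4 libraries, 1 of each sensitive line, were taken 48 h after a washout that followed 10 days of palbociclib. A further library came from untreated MeT-5A cells. DMSO and palbociclib cultures were paired within an experiment, which gave 2 pairs of H2052, 3 each of H2452, H28 and MSTO-211H, 2 of MPP89 and 1 of MeT-5A.

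Origins of replication are licensed in G1, when ORC, CDC6 and CDT1 load the MCM2-7 ring on DNA, and geminin (GMNN) blocks CDT1 once S phase has begun. CDC7 with its activator DBF4 then phosphorylates MCM2-7, and CDC45 and the GINS tetramer join the ring to form the active CMG helicase. DNA polymerase alpha with primase starts each strand, the RFC loader places the PCNA clamp, polymerases delta and epsilon extend, RPA covers the single strands, and FEN1 and LIG1 finish Okazaki fragments. Many of these genes are known targets of E2F factors, which pRb holds in check until CDK4/6 and CDK2 phosphorylate it.

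The promoters shown here are the stretches just upstream of a RefSeq start (GRCh38.p14, gene strand, 5′ to 3′). MCM7, PCNA, GMNN and CDC7 have several starts, of which the one with the most E2F words is shown. Their other starts held 0 E2F words. MCM6, MCM7, PCNA, GMNN, RFC3 and CDC7 are genes that fell with palbociclib in the sensitive lines, and ORC3 and ORC5 are subunits of the origin recognition complex that did not pass the test. Capitals mark the E2F words TTTCGCGC, TTTGGCGC, TTTCCCGC and TTTGCCGC on either strand; in MCM6 a word on each strand overlap within each run of capitals.
MCM6 (chr2:135876444-135876613, minus strand): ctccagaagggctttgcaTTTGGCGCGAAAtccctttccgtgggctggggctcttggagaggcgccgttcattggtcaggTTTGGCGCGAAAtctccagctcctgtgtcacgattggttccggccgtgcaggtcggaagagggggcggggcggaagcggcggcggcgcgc
MCM7 (chr7:100101398-100101497, minus strand): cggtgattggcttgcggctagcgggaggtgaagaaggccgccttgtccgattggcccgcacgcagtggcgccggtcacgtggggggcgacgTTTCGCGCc
PCNA (chr20:5126623-5126722, minus strand): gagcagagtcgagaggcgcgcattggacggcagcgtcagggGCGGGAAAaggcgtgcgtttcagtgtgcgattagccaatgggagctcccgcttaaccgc
GMNN (chr6:24775313-24775412, plus strand): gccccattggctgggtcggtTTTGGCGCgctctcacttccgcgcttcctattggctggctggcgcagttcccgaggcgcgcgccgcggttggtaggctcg
RFC3 (chr13:33818049-33818148, plus strand): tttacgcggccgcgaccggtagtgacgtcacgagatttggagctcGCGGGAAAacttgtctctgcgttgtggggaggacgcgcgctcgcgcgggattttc
CDC7 (chr1:91501012-91501111, plus strand): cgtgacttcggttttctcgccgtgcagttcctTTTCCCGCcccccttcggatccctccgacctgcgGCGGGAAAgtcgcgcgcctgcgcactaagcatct
ORC3 (chr6:87590035-87590134, plus strand): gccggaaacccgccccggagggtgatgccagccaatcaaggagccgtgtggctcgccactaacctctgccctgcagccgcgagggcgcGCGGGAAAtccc
ORC5 (chr7:104208014-104208113, minus strand): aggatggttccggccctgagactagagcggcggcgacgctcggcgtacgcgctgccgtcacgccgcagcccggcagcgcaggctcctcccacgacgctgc
Promoters (250 bases before to 50 after the start) were held for 45 of the 52 genes, and 22 of these (48.9%) contained an E2F word, against 3.99% of all 27305 genes with a promoter in the table. Of the genes that fell with palbociclib, 20 of 37 held a word. Of those that did not pass, 2 of 8 did, ORC3 among them. MCM10, PRIM1, CDC45 and ORC1, the members with the largest falls, held none of these words in the window, and MCM6 held 4. A match is a description of letters and no evidence of binding.

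The deposited columns add up to between 20007662 and 20021400 CP20M, so depth could be read only from steps in the low values, which gave 12770000 to 19830000 reads for 23 libraries. Of the blood cell markers reported here, CD3E was at 0 in every library, LYZ and PTPRC reached at most 8 and 42 CP20M, and the macrophage marker CD68, also made by other cells, ran from 123 to 1844. The summed lung epithelial markers stayed at or below 119 CP20M and the endothelial ones at or below 150. Of 10 mesothelial markers, between 3 (MSTO-211H) and 7 (H2052 and H2452) had a mean of at least 100 CP20M in the DMSO libraries of a line, and WT1 was at 0 in the MeT-5A DMSO library. The summed mesothelial markers lay above the DMSO range with palbociclib in H2052 (59511 to 61278 CP20M against 45453 to 56290), H28 (10062 to 14730 against 6178 to 7980) and MSTO-211H (37317 to 49527 against 15679 to 21793), and overlapped in H2452 (21673 to 36393 against 23253 to 46155). Single markers differed widely in level: KRT18, KRT7 and KRT19 reached 47685, 36778 and 26295 CP20M, and every other marker at most 6853 (MSLN). The sums thus weigh these keratins most and do not show that the markers rose as a set. In H28, CALB2 and PDPN were at 0 in every palbociclib library. The part of these markers in the results was not tested. The labels and methods tie the pairs to separate experiments, each of 1 library per condition. In bulk RNA, fewer cells in S phase and less RNA of a gene per cell cannot be told apart.

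Over the 11 pairs of the sensitive lines, palbociclib lowered most of the replication genes and raised none. With limma on log2(CP20M + 10), 42 of 52 members were lower by more than 1.5-fold at an FDR under 0.05 and none was higher, where 9.37% of all 17803 genes tested were called lower and 5.58% higher. The median difference was -0.88 over the members and -0.11 over all genes (log2). Scaling matters for these values: with median-of-ratios factors the median of all genes moved to 0.06 and that of the members to -0.68. With these factors 31 members were called lower, as were 900 of all genes tested in place of 1669. Lower genes then made up 33.8% of all calls in place of 62.7%. The 11 pairs come from 4 lines. With the mean of each line as the unit, 30 of 52 members were called lower, as were 1352 of 17803 genes. The adjusted p given below for single genes over the sensitive lines take the pairs as units. All 11 pairs were lower for 28 members, which 14.4% of all genes also showed. PRIM1 was the single member whose 11 palbociclib libraries all lay below the 11 DMSO libraries (0.635% of all genes). The 7 pairs of 9 days called 28 members lower (median -0.74) against 6.86% of all genes, and the 4 pairs of 10 days called 36 (median -1.11) against 9.72%, a split added after the values were seen.

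**Figure D1:**
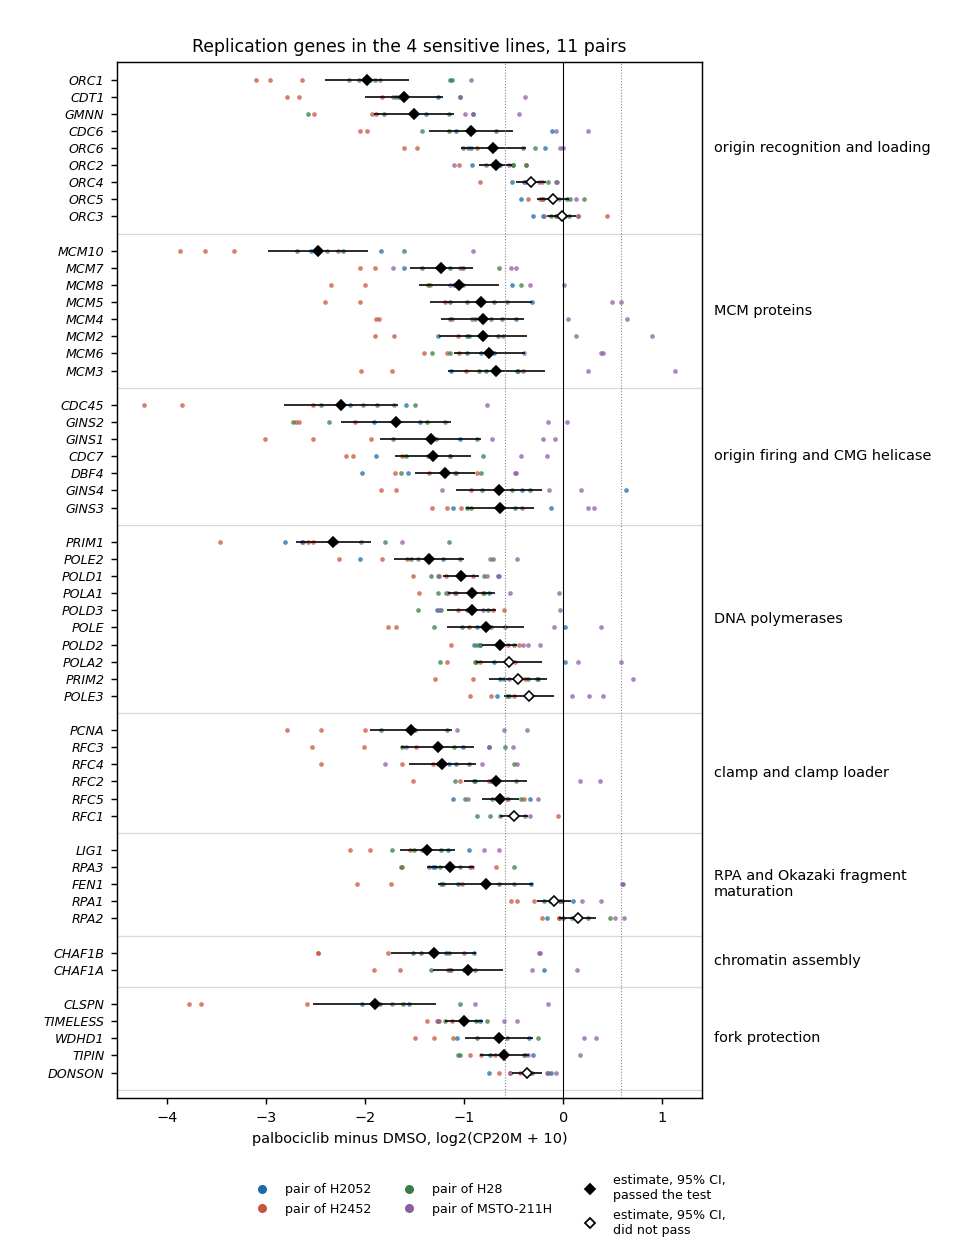
Palbociclib minus DMSO difference of each of the 52 genes on the log2(CP20M + 10) scale, by role. Small points are the 11 pairs, coloured by line, diamonds are the limma estimates with 95% confidence intervals, filled where the gene passed the test, and dotted lines mark 1.5-fold; 42 diamonds are filled, all below 0, and the MSTO-211H pairs often lie at the right.

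Among the genes of origin recognition and loading, 6 of 9 fell. ORC1, the ATPase subunit of the origin recognition complex that is made and destroyed in each cycle, ranged from 76 to 959 CP20M with DMSO (median 276) and from 29 to 285 with palbociclib (median 50). The ranges overlapped between lines, but ORC1 was lower in each of the 11 pairs, by 3.96-fold on average (log2 difference -1.98 ± 0.20, SE, adjusted p = 7.16e-06). CDT1 (-1.61 ± 0.19, SE), GMNN (-1.50 ± 0.19), CDC6 (-0.93 ± 0.20), ORC6 (-0.70 ± 0.15) and ORC2 (-0.68 ± 0.08) also fell. The remaining core subunits ORC3 (-0.02 ± 0.07), ORC4 (-0.32 ± 0.07) and ORC5 (-0.10 ± 0.07) did not pass. ORC3 had 316 to 1100 CP20M with DMSO and 273 to 1196 with palbociclib, with medians of 665 and 673, and its 95% confidence interval ran from -0.16 to 0.13; its sign turned with median-of-ratios scaling (0.18). The ATPase ORC1 and the core subunit ORC3 of a single complex were thus far apart, and the licensing activator CDT1 and its inhibitor GMNN fell side by side.

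All 8 MCM genes fell, by unequal amounts. MCM10, which is not part of the ring and helps to activate the helicase, had 108 to 1304 CP20M with DMSO (median 284) and 10 to 271 with palbociclib (median 47), the largest fall of all members (5.58-fold, log2 difference -2.48 ± 0.24, SE, adjusted p = 5.15e-06). The ring subunit MCM7 fell by 1.23 (± 0.15, SE), and MCM8, a helicase of recombination, by 1.05 (± 0.19). The other ring subunits MCM2, MCM3, MCM4, MCM5 and MCM6 had differences between -0.83 (MCM5, SE 0.24) and -0.68 (MCM3, SE 0.23). MCM3 had 889 to 6131 CP20M with DMSO (median 2255) and 640 to 3596 with palbociclib (median 1885), so its groups overlapped broadly. MCM7 shares exons with MIR93 and with AP4M1 in the GENCODE 44 annotation, so its reads are not certain to be its own.

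The genes of origin firing fell in 7 of 7 cases. CDC45, the helicase cofactor that marks active forks, had 114 to 762 CP20M with DMSO (median 550) and 20 to 209 with palbociclib (median 84), a 4.73-fold fall (log2 difference -2.24 ± 0.27, SE, adjusted p = 2.65e-05). The kinase CDC7 (-1.32 ± 0.18, SE) and its activator DBF4 (-1.19 ± 0.14) fell together. Within the GINS tetramer, GINS2 (-1.69 ± 0.26) and GINS1 (-1.34 ± 0.24) fell further than GINS4 (-0.64 ± 0.20) and GINS3 (-0.64 ± 0.16). GINS3 had 91 to 442 CP20M with DMSO (median 264) and 82 to 459 with palbociclib (median 142), and its highest palbociclib library, from MSTO-211H, exceeded every DMSO library of the sensitive lines.

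Of the 10 polymerase and primase genes, 7 fell and 3 did not pass. PRIM1 (ENSG00000198056, chromosome 12 from 56730438 to 56752374 of GRCh38), the catalytic primase subunit, had 146 to 372 CP20M with DMSO (median 233) and 12 to 90 with palbociclib (median 41). Its groups did not overlap, and the fall was 5.00-fold (log2 difference -2.32 ± 0.18, SE, adjusted p = 1.02e-06). PRIM2 (ENSG00000146143, chromosome 6 from 57314805 to 57646850), the regulatory subunit of the same heterodimer, had 272 to 764 CP20M with DMSO (median 489) and 227 to 630 with palbociclib (median 345), and did not pass the fold limit (-0.46 ± 0.14, SE). The exons of PRIM1 overlap those of NACA on its own strand and of HSD17B6 on the other in GENCODE 44, and whether shared reads add to its values was not tested. POLA1, the catalytic subunit of polymerase alpha, fell by 0.93 (± 0.11, SE), while its partner POLA2 had -0.55 (± 0.16) and did not pass. Of polymerase delta, POLD1 (-1.03 ± 0.09), POLD3 (-0.92 ± 0.11) and POLD2 (-0.64 ± 0.08) fell. Of polymerase epsilon, POLE2 (-1.35 ± 0.16) and the catalytic POLE (-0.78 ± 0.18) fell, whereas POLE3, a histone-fold subunit shared with chromatin remodelling complexes, had 862 to 1764 CP20M with DMSO (median 1275) and 668 to 1393 with palbociclib (median 951) and did not pass (-0.35 ± 0.12).

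The clamp and clamp loader genes fell in 5 of 6 cases. PCNA, the sliding clamp, had 948 to 3005 CP20M with DMSO (median 2188) and 340 to 1060 with palbociclib (median 703), and fell 2.90-fold (log2 difference -1.54 ± 0.19, SE, adjusted p = 3.62e-05). The groups overlapped only through MSTO-211H DMSO 2, at 948 CP20M. The small RFC subunits RFC3 (-1.27 ± 0.17, SE) and RFC4 (-1.22 ± 0.16) fell further than RFC2 (-0.68 ± 0.15) and RFC5 (-0.63 ± 0.09). The large subunit RFC1, with 1364 to 2726 CP20M under DMSO (median 2315) and 964 to 2562 under palbociclib (median 1766), was lower in all 11 pairs but missed the fold limit (-0.50 ± 0.07, adjusted p = 5.86e-05).

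RPA, the heterotrimer that coats single-stranded DNA, moved unevenly. RPA3, its smallest subunit, had 176 to 647 CP20M with DMSO (median 319) and 66 to 289 with palbociclib (median 150), and fell by 1.14 on the log2 scale (± 0.11, SE, adjusted p = 5.62e-06). RPA1 (-0.09 ± 0.08) and RPA2 (0.15 ± 0.09) did not pass. RPA2 had 256 to 758 CP20M with DMSO and 273 to 652 with palbociclib, with medians of 320 and 464, and a confidence interval from -0.04 to 0.34. RPA1 turned its sign with median-of-ratios scaling, at 0.10. RPA3 shares exons with UMAD1 on the opposite strand. DNA ligase LIG1 had 367 to 1818 CP20M with DMSO (median 781) and 121 to 681 with palbociclib (median 375), a fall of 1.37 (± 0.13, SE, adjusted p = 5.00e-06), and the flap nuclease FEN1 fell by 0.78 (± 0.22).

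**Figure D2:**
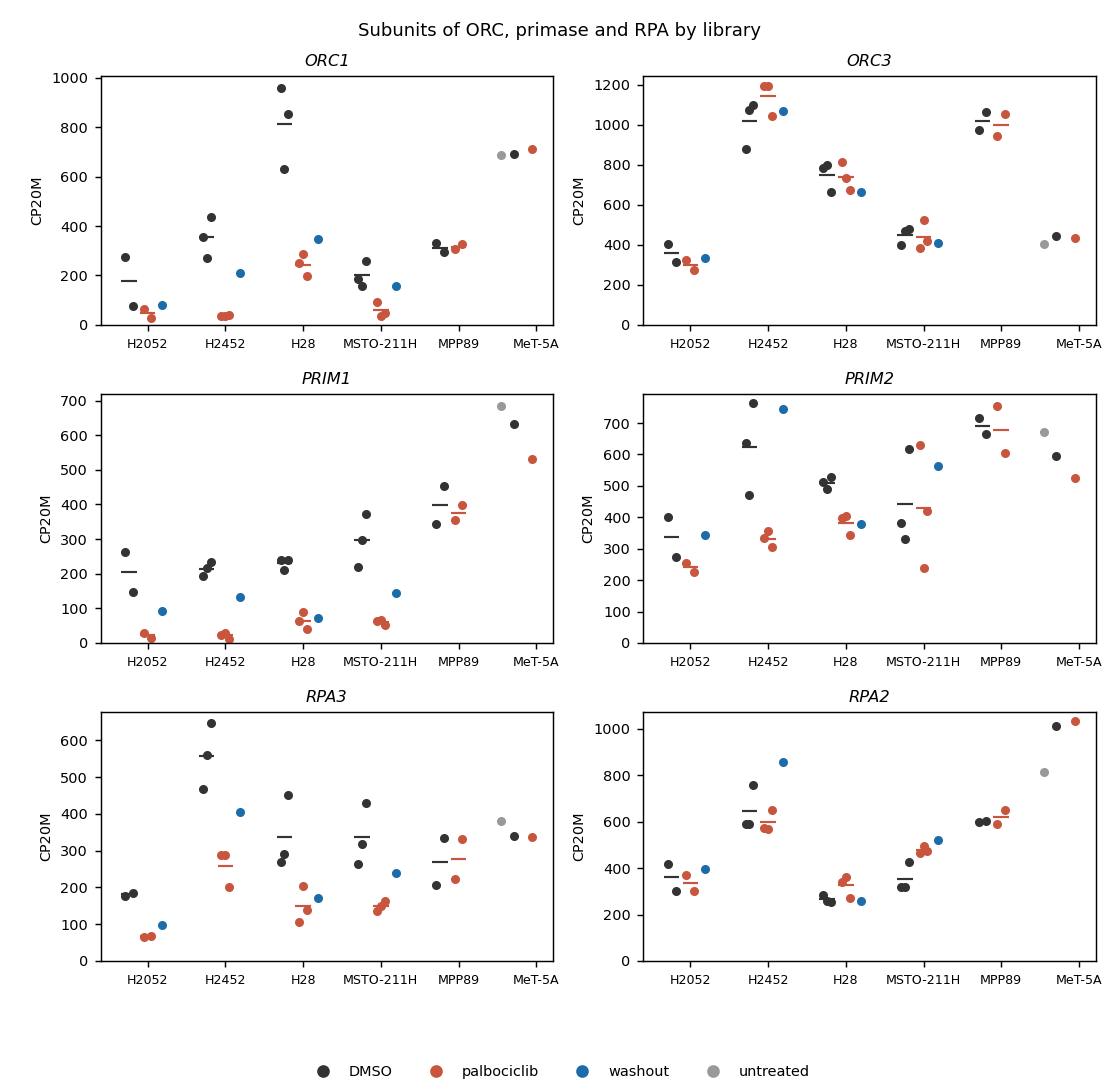
CP20M values of ORC1 and ORC3, PRIM1 and PRIM2, and RPA3 and RPA2 in every library, by line on the horizontal axis. Points are libraries (DMSO, palbociclib, washout or untreated by colour), short lines are group means where a group has at least 2 libraries, and each panel starts at 0; the palbociclib points of PRIM1 lie at 12 to 90 in the sensitive lines, and those of ORC3 lie among the DMSO points.

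Both chromatin assembly genes fell. CHAF1B had 192 to 981 CP20M with DMSO (median 551) and 91 to 357 with palbociclib (median 213), with a difference of -1.31 (± 0.20, SE). CHAF1A had 325 to 2385 CP20M with DMSO (median 1029) and 293 to 1077 with palbociclib (median 398), with -0.96 (± 0.17). The fork protection genes fell in 4 of 5 cases. CLSPN, the adaptor that carries the checkpoint signal from ATR to CHK1, had 125 to 1666 CP20M with DMSO (median 773) and 47 to 656 with palbociclib (median 136), a 3.73-fold fall (log2 difference -1.90 ± 0.29, SE). TIMELESS, a fork protection subunit, had 657 to 1588 CP20M with DMSO (median 1114) and 363 to 805 with palbociclib (median 520), and fell by 1.0 (± 0.09). WDHD1 (-0.65 ± 0.16) and TIPIN (-0.60 ± 0.12) also fell, the latter less far than TIMELESS, its partner. DONSON, which takes part in helicase assembly, had 693 to 1762 CP20M with DMSO (median 1457) and 657 to 1311 with palbociclib (median 1002), and did not reach 1.5-fold (-0.37 ± 0.07, lower in 11 of 11 pairs).

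Lists of 40 other replication genes and 20 mitotic genes were set beside the 52 genes. Both lists were chosen with earlier results of these data known, so they are no independent standard. Of the other replication genes, 24 of 40 were called lower and none higher (median -0.71), from UHRF1 (-2.06 ± 0.25, SE), a reader of hemimethylated DNA, and the histone chaperone ASF1B (-1.95 ± 0.32) to HUS1 (0.05 ± 0.07) and POLD4 (0.33 ± 0.10), which did not pass. All 20 mitotic genes were called lower, with a median of -2.42, from KIF20A (-2.98 ± 0.31) and BIRC5 (-2.93 ± 0.36) to KIF23 (-1.86 ± 0.21) and AURKA (-1.50 ± 0.25). The median fall of the 52 genes on the log2 scale was smaller than the fall of each mitotic gene. The part of this mitotic fall in the values of the replication genes was not tested.

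The response differed among the sensitive lines. In H2452, 44 of 52 members were called lower (10.8% of all genes, and 16.8% in either direction), with a median of -1.48, and CDC45 went from 556, 462 and 681 CP20M to 20, 72 and 38. H28 had 37 lower (7.34% of all genes) and a median of -1.01, and H2052 had 28 (13.0%) and -0.81. In MSTO-211H 8 of 52 were lower (7.94% of all genes), with a median of -0.42: ORC1, ORC2, MCM10, CDC45, PRIM1, POLD1, RPA3 and LIG1. No member was called higher in any of these lines, where 4.67% (H2052), 6.04% (H2452), 5.89% (H28) and 5.9% (MSTO-211H) of all genes were. The fits of single lines rest on few pairs, and without any 1 pair no member was called in H28 or MSTO-211H, nor in H2452 without pair 1 or pair 3. In a single fit of all 28 libraries, 20 of 52 members were called lower in MSTO-211H, as were 15.5% of all genes. The H2052 count, from 2 pairs, was 14 with either other scaling, 6 with no replicate block, 2 with no filter and 0 with no trend. An F test of the differences among the 4 lines called 29 of 52 members at an FDR under 0.05, where 37.1% of all genes were called, with 7 of 8 MCM and 6 of 7 firing genes among them. The number was 13 without MSTO-211H and 8 without H2452, both added after the values were seen, and 13 to 33 without 1 pair (13 and 14 without H2452 pair 1 and pair 3). Shares of all genes are not given for these refits, so the numbers cannot be set against a background.

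MCM6, GINS1 and PCNA had the lowest p of that test. MCM6 had 1973 and 1329 CP20M with DMSO and 1107 and 816 with palbociclib in H2052, and 1820, 1650 and 2120 against 799, 792 and 794 in H2452. In H28 it had 4193, 3056 and 3462 against 1893, 1549 and 1375. In MSTO-211H it had 1738, 1220 and 2234 with DMSO and 2271, 1614 and 1700 with palbociclib, so the groups overlapped in this line alone (limma F test, adjusted p = 0.00202). The log2 differences of MCM6 were -0.76, -1.21, -1.15 and 0.13 in this order. GINS1 had log2 differences of -1.20 (H2052), -2.49 (H2452), -1.29 (H28) and -0.34 (± 0.17, SE, MSTO-211H), with an adjusted p of 0.00222. For PCNA the values were -1.55, -2.41, -1.50 and -0.68 (adjusted p = 0.00227), and MSTO-211H had 1294, 948 and 1887 CP20M with DMSO and 999, 622 and 890 with palbociclib.

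Within MSTO-211H the pairs were unlike each other. The median difference of the 52 genes was -0.22 and -0.15 in the pairs of 9 days and -0.97 in the pair of 10 days, while the mitotic genes had medians of -0.77, -2.63 and -2.45. Pair 2 thus combined a deep mitotic fall with a small median difference of the replication genes, which moved in both directions. MCM2 had 1244 CP20M with DMSO and 2332 with palbociclib, MCM3 1123 and 2475, and MCM6 1220 and 1614. PRIM1 went from 298 to 65 and MCM10 from 136 to 18 in the same pair. The DMSO libraries also differed, with a median level of the members (log2(CP20M + 10)) of 8.92 and 8.65 in DMSO 1 and 2 and 9.45 in DMSO 3, against 8.98, 8.56 and 8.74 with palbociclib. H2052 showed a like gap between DMSO 1 (9.66) and DMSO 2 (8.80). The mitotic median was also lower in those libraries, at 9.21 and 8.84 against 10.0 in MSTO-211H and at 9.95 against 10.8 in H2052. Time of treatment and experiment cannot be told apart here, and the part of these DMSO levels in the results was not tested.

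**Figure D3:**
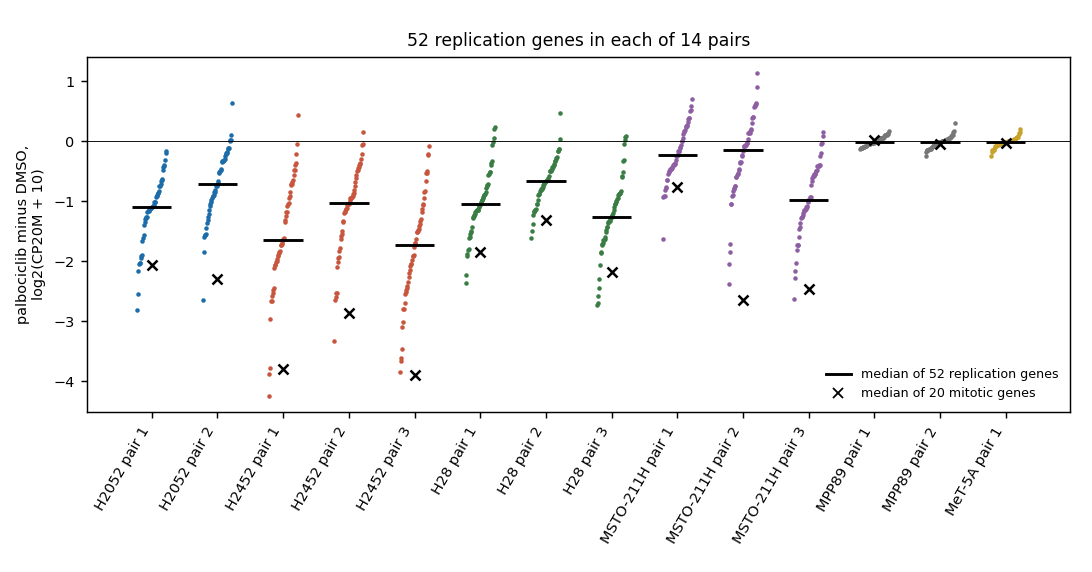
Palbociclib minus DMSO difference of the 52 genes on the log2(CP20M + 10) scale in each of the 14 pairs, with points sorted by value and coloured by line. Black bars are medians of the 52 genes and crosses are medians of the 20 mitotic genes; bars lie between -1.73 and -0.15 in the 11 sensitive pairs and between -0.02 and -0.01 in the 3 resistant pairs.

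The resistant lines showed no such movement. In MPP89 no member was called in either direction, nor in the 3 pairs of both resistant lines, and no gene of the 17803 was (0.0% in both). With limma at an unadjusted p under 0.05 there were 1 member and 918 genes in MPP89, and 0 members and 1258 genes in both lines. The pairs have few degrees of freedom, so the calls alone say little. None of the 52 members moved beyond 1.5-fold in any of the 3 pairs, but the share of all genes within this limit is not given here. The medians of the members were -0.02 in both fits, and those of all genes 0.01. The 95% confidence intervals of the members lay between -0.32 and 0.34 over the 3 pairs. These sizes describe the members and do not set them apart from other genes. PRIM1 had 343 and 453 CP20M with DMSO and 355 and 398 with palbociclib in MPP89, and 633 and 530 in MeT-5A. MCM10 had 814 and 821 against 759 and 847 in MPP89, and 2346 against 2345 in MeT-5A. CDC45 had 585 and 600 against 573 and 568 in MPP89, and 1358 against 1314 in MeT-5A. The values of each gene lay side by side within a line.

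The difference between the classes was tested itself. The response of the sensitive lines was lower than that of the resistant lines for 21 of 52 members and higher for none, where 5.62% of all genes were called lower and 1.13% higher in this test (6.75% in either direction). The pairs of this test share lines, 4 sensitive and 2 resistant, so resistance and line cannot be told apart. With the mean of each line as the unit, added after the values were seen, 4 of 52 members were called lower and 0.725% of all genes, and the median of the members was -0.83. In the test over pairs, POLD1 (-1.07 ± 0.17, SE, adjusted p = 0.00219), PRIM1 (-2.19 ± 0.35, adjusted p = 0.00251) and TIMELESS (-1.07 ± 0.18, adjusted p = 0.00292) had the lowest p. POLD1, the catalytic subunit of polymerase delta, had 3997 and 3263 CP20M with DMSO and 3969 and 3384 with palbociclib in MPP89, and 2555 and 2686 in MeT-5A. In the sensitive lines its DMSO libraries had 1090 to 2543 CP20M (median 1787) and the palbociclib libraries 628 to 1135 (median 806), with overlap only between lines. With median-of-ratios scaling 15 members were called, and of all genes tested 423 were called lower and 576 higher. Lower genes thus made up 42.3% of all calls in place of 83.2%. The count was 40 without MSTO-211H, added after the values were seen, and it was 3 without MPP89 pair 1 and 5 without either MPP89 pair 2 or the MeT-5A pair. For the refits without a line or a pair the share of all genes is not given, so those counts show only how far the number moves.

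**Figure D4:**
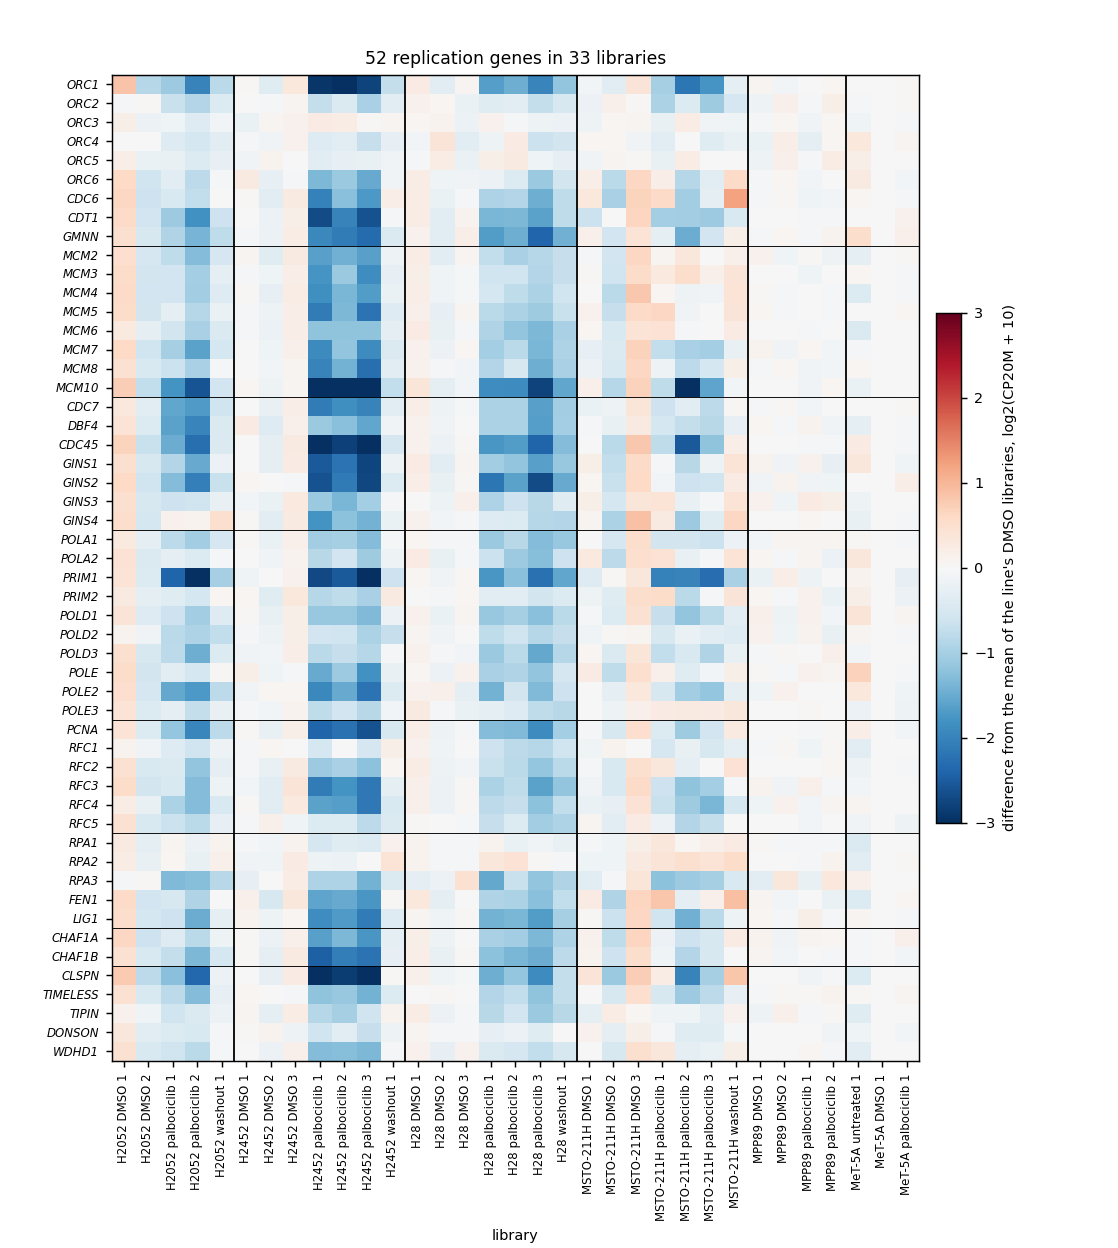
Log2(CP20M + 10) of the 52 genes (rows, by role) in 33 libraries (columns, by line), as the difference from the mean of the line's DMSO libraries, on a colour scale that ends at -3 and 3. Blue marks lower and red higher values; MPP89 and MeT-5A palbociclib columns are pale, and the rows of MCM2 to MCM6 in MSTO-211H are pale or red with palbociclib.

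After 48 h of washout 13 of 52 members were called higher than with palbociclib (1.4% of all genes were): ORC1, MCM7, MCM10, CDC7, DBF4, CDC45, PRIM1, POLD3, POLE2, PCNA, LIG1, CLSPN and TIMELESS. The fitted differences of the 52 members had a median of 0.77 and were all above 0 as deposited, and the sign of ORC3 turned with the other scalings (-0.07 and -0.13). CLSPN showed the largest rise (2.16 ± 0.35, SE, adjusted p = 0.0217). In the order DMSO, palbociclib, washout of the same experiment, CLSPN was at 296, 94 and 454 CP20M for H2052, at 911, 63 and 789 for H2452, at 1444, 392 and 902 for H28, and at 475, 136 and 512 for MSTO-211H. CDC6 was at 467, 431 and 714 for H2052, at 1688, 420 and 1601 for H2452, at 1265, 463 and 756 for H28, and at 585, 302 and 862 for MSTO-211H. CDC6 lay above the DMSO library in H2052 and MSTO-211H and well below it in H28. Among the mitotic genes 19 of 20 were called higher. These calls need all 4 lines: without H28 1 member was called, and without any of the other lines 0 were. With median-of-ratios scaling 3 were called, and 139 of all genes tested were called higher in place of 250. For the fits without a line the share of all genes is not given.

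Against DMSO, which shares the washout libraries with the previous comparison, 3 members were still lower (2.95% of all genes were called lower, 2.81% higher and 5.76% in either direction) and the median was -0.36. So small a count is not far from these shares and is no result about the group. PRIM1 was lower by 1.07 (± 0.28, SE, adjusted p = 0.0400), RPA3 by 0.92 (± 0.14, adjusted p = 0.00749) and POLD2, the second subunit of polymerase delta, by 0.67 (± 0.11, adjusted p = 0.00799). In the same order of conditions, PRIM1 was at 146, 15 and 93 CP20M for H2052, at 233, 12 and 134 for H2452, at 240, 41 and 72 for H28, and at 372, 52 and 143 for MSTO-211H. RPA3 had 186, 69 and 98, then 647, 202 and 405, then 452, 138 and 171, and 430, 162 and 240 in these lines. Both lay between the palbociclib and the DMSO value in each line. POLD2, which falls outside the rule for named genes and is described as the remaining call, had 1673, 933 and 1066, then 2691, 1225 and 1462, then 1721, 934 and 1055, and 3721, 2804 and 2685. ORC1 was at 76, 29 and 79 CP20M, then 436, 42 and 209, then 854, 197 and 347, and 259, 50 and 159, back at the DMSO level in H2052 alone. Its difference of -0.73 (± 0.28, SE) did not pass, nor did those of RPA2 (0.21 ± 0.11), CDC6 (0.09 ± 0.28) and RPA1 (0.08 ± 0.12), the members with the highest values. No member was called without H2052, and 1 without MSTO-211H. No mitotic gene was called (limma, 1 of 20 at an unadjusted p under 0.05).

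By line, with 1 washout library each and no test, the 52 genes had a median against DMSO of 0.17 for H2052, -0.38 for H2452, -0.76 for H28 and -0.31 for MSTO-211H. In H28, 40 members stayed more than 1.5-fold below the DMSO library, against 3 in H2052, 11 in H2452 and 15 in MSTO-211H. The share of all genes past this limit is not given here, so these counts describe single libraries and are no result about the group. The mitotic medians were 0.26, -0.03, -1.0 and -0.77 in the same order. The DMSO library of the H2052 washout experiment is the lower of its line.

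**Figure D5:**
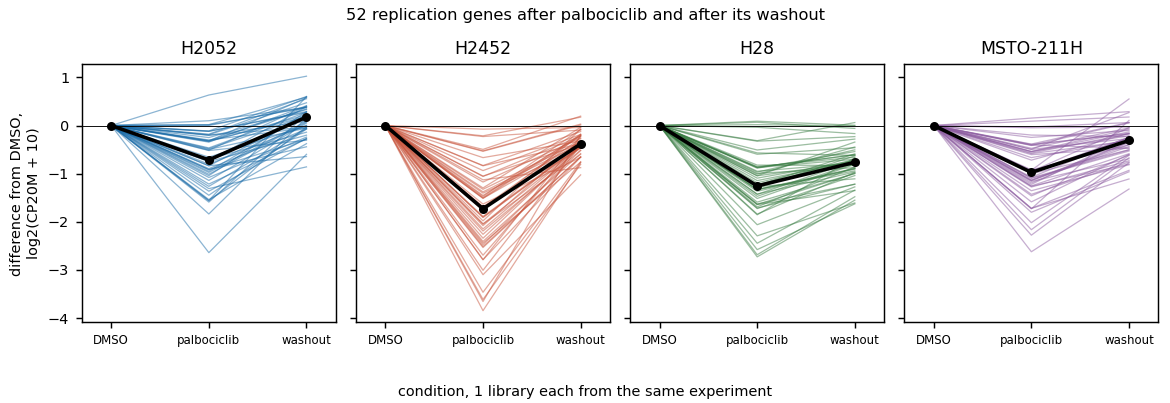
Difference from the DMSO library of the same experiment, in log2(CP20M + 10), for the 52 genes (thin lines) and their median (black) after palbociclib and after washout, by line. Each point is 1 library; the medians after washout lie between -0.76 (H28) and 0.17 (H2052).

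The levels without the drug were compared over the 6 lines. Per kilobase of exon, the median over DMSO libraries ran from 35.9 CP20M for POLE2 to 1599 for PCNA, with a median of 175 over the 52 genes. An F test over the 15 control libraries called 51 of 52 members, all but POLE3, a share near that of all genes (96.3%). ORC3, MCM8 and ORC2 had the lowest p. ORC3 was at 973 and 1062 CP20M in MPP89 and 880, 1072 and 1100 in H2452, above 783, 799 and 665 in H28, 401, 471 and 480 in MSTO-211H, 404 and 316 in H2052, and 402 and 444 in the untreated and DMSO libraries of MeT-5A. The upper pair of lines overlapped, and so did the lower 3 lines. MCM8 was at 4719 and 4515 CP20M in MeT-5A, above all other lines, which ran from 297 in MSTO-211H to 1406 in MPP89. ORC2 was highest in H28 (1598, 1510 and 1263 CP20M), overlapped there by MSTO-211H (1009, 1264 and 1171), and lower in the other lines.

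Over the means of the 6 lines, 49 of 52 members were higher in the resistant than in the sensitive lines, with a median of 0.80 (0.18 over all genes), but none was called with limma (0.0899% of all genes were, and 11 members had an unadjusted p under 0.05). Shares of all genes are not given beside the 49 and the 11, so neither count is a result about the group. POLE2 (1.74 ± 0.52, SE, adjusted p = 0.474), WDHD1 (1.30 ± 0.40, adjusted p = 0.479) and POLD1 (0.95 ± 0.29, adjusted p = 0.479) had the lowest p. POLE2 had 217 and 264 CP20M in MPP89 and 592 and 472 in MeT-5A, above the 56 to 164 CP20M of every sensitive DMSO library. With upper-quartile scaling, which set the median of all genes to -0.23, the median of the members was 0.39. With 2 resistant lines, 1 of them immortalized by SV40, resistance and line cannot be told apart.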

How the data were processed

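Total RNA of the cells was made into directional paired-end libraries. Per the labels and methods, the authors trimmed reads with Trimmomatic 0.36, mapped them with STAR 2.5.3 to GRCh38, counted them per gene with HTSeq 0.9.1 and scaled each library to 20000000 reads. The deposited values are thus a normalized score in CP20M, rounded up to whole numbers, and no count model was used. The strand setting of the counting is not given in the sources used here, and exons of 27 members overlap another gene in GENCODE 44 (10 on the same strand, 21 on the opposite one).

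Values were tested as log2(CP20M + 10) with limma 3.58.1 in R 4.3.3 (lmFit, eBayes with trend) over 17803 genes, those that reached 100 CP20M in any of the 33 libraries. A call needed a Benjamini-Hochberg FDR under 0.05 and a change of more than 1.5-fold; F tests used the FDR alone. Fold changes on this scale understate those of low genes. The experiment was a block in the paired fits, as in the study's methods, and the line in the washout fit. Same-numbered DMSO and palbociclib libraries deviated together from their group means, at correlations over genes (no independent replicates) between 0.18 and 0.78. The members and the lists of other replication and mitotic genes were chosen with earlier results of these data known. The rule for genes described in detail took the members with the lowest and the highest fold change in each role, the 3 lowest and 3 highest of washout against DMSO, and the 3 lowest p of the other tests. PRIM2, POLD2 and the MCM2 and MCM3 values of MSTO-211H were added after their values were seen. The alternatives were no block, pseudocounts of 1 and 50, 2 other filters, median-of-ratios and upper-quartile scaling, no trend, a single fit of all lines and leaving out each pair or line. The functions were tested on simulated data. Promoters are from RefSeq (GRCh38.p14), where the one with the most E2F words was taken for a gene with several. Figures were drawn with matplotlib 3.10.9. The depths estimated for 23 libraries had a median of 16380000 reads, and no interval was computed from them.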

Additional observations from a re-analysis of the deposited data

Results flagged for a closer look

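The difference in response between sensitive and resistant lines was itself past the test for 21 of 52 members over pairs, where 5.62% of all genes were called lower. With line means as units 4 members passed, where 0.725% of all genes were called lower. Over pairs the difference was -1.07 on the log2 scale for POLD1, -2.19 for PRIM1 and -1.07 for TIMELESS. The response also differed among the 4 sensitive lines for 29 of 52 members by limma's F test, where 37.1% of all genes were called. The adjusted p of this F test was 0.00202 for MCM6, 0.00222 for GINS1 and 0.00227 for PCNA. No group of libraries was large enough for a test of outlying samples.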

How the results depend on the processing

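The 42 calls over the sensitive lines became 28 to 44 under the alternatives run, and the calls in the resistant lines (0), between resistant and sensitive controls (0) and among control levels (51) kept within 1.5 times. Smaller fits moved more. In H2052 (28 calls) there were 6 with no replicate block, 13 with a pseudocount of 1, 2 with no filter, 14 with either scaling, 0 with no trend, and 14 to 29 without 1 pair, where the single pair left was fitted with all lines and is assumed to vary like them. In MSTO-211H (8 calls) there were 3 with no replicate block, 4 with a pseudocount of 1, 2 with no filter, 17 with the filter within the fit, 2 with either scaling, 5 with no trend, 20 in a single fit of all libraries and 0 without any pair. Without 1 pair there were 0 to 35 calls in H2452 and 0 in H28, where 2 pairs are left. The test between classes (21 calls) gave 3 to 28 calls without 1 pair, 40 without MSTO-211H and 4 with line means as units. The test among lines (29 calls) gave 9 with no replicate block, 17 with no filter, 13 to 33 without 1 pair, 13 without MSTO-211H and 8 without H2452. Washout against palbociclib (13 calls) gave 0 with no line block, 7 with a pseudocount of 50 or no filter, 3 with either scaling, 8 with no trend and 0 to 1 without 1 line. Washout against DMSO (3 calls) gave 0 with no line block, 1 with median-of-ratios scaling and 0 to 2 without 1 line. Most of these counts stand without the share of all genes in the same fit. The cause of these moves was not tested.

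Of single named genes, 23 values turned sign. ORC3 over the sensitive lines was 0.1774 and 0.1541 with median-of-ratios and upper-quartile scaling, -0.0609 to 0.0139 without 1 pair, 0.0381 without H2052 and 0.0414 in the pairs of 9 days. RPA1 was 0.103 and 0.0794 with these scalings and 0.0335 without H2452. For washout against palbociclib, ORC3 was -0.0722 and -0.1301 with the scalings and -0.0088 to 0.0992 without 1 line, the lowest without H2052. For washout against DMSO, ORC3 was 0.046 and CLSPN 0.0528 with median-of-ratios scaling. Without 1 line, this comparison ran from -0.0942 to 0.012 for ORC3, -0.21 to 0.0588 for POLE3, -0.2573 to 0.1672 for CLSPN, -0.0466 to 0.1207 for DONSON, -0.0865 to 0.3592 for CDC6 and -0.0258 to 0.1565 for RPA1. A further 121 values of named genes no longer passed, 1 newly passed and 1205 kept their call. The treatment-length subsets and the fits without MSTO-211H or H2452 or with line means of the tests between classes and among lines were chosen after seeing the data.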

Other observations

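Other promoter words were counted in the same windows of 250 bases before to 50 after the RefSeq start. The CHR word TTTGAA stood in 11 of 16 mitotic promoters (68.8%), in 2 of 45 promoters of the 52 replication genes (4.44%) and in 18.2% of all genes. The CCAAT word stood in 12 of 16 mitotic genes, 26 of 45 replication genes and 39.7% of all genes. None of the 16 mitotic promoters held an E2F word as searched, and 5 of 33 other replication genes did (15.2%). These are counts of letters on both strands, given with no test, and no site was tested for binding.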
